A study of Homo sapiens with 6 samples.

Results

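Replication-dependent histone genes encode the H1 linker histones and the H2A, H2B, H3 and H4 core histones that package newly made DNA. They were chosen here by name: every array row whose only gene symbol was a HIST1H, HIST2H, HIST3H or HIST4H symbol, or its current form such as H2AC1, with the row of the highest mean kept where a gene had several. This gave 59 genes of the 18417 genes with a row of their own, 58 of them protein-coding and 1 the pseudogene H2BC19P. By class, 6 were H1 genes, 14 H2A, 17 H2B, 9 H3 and 13 H4. By position, 49 lay in the HIST1 cluster on chromosome 6, 6 in HIST2 and 3 in HIST3 on chromosome 1, and 1, H4C16, was the HIST4 gene on chromosome 12. H4C14 and H4C15 carried identical values on all 6 arrays, so the 59 genes hold 58 distinct measurements.

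The cells were RD18, a human cell line of embryonal rhabdomyosarcoma, a childhood tumour with features of skeletal muscle. An inducible line named NpBI-22, made to express miR-22 and called miR-22 cells here, was treated with doxycycline at 1 µg/ml for 6 days (induced, 2 biological replicates) or left untreated (non-induced, 2 biological replicates). A second line, NpBI-206AS, had 1 array with the same doxycycline treatment and 1 without it, and served as an additional control; the labels do not say what its construct expresses, nor whether either line is a single clone. All cultures had the same medium, and total RNA of each was hybridised to 1 Affymetrix array after labelling with a whole-transcript kit, which does not depend on a poly(A) tail.

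Most messenger RNAs end in a poly(A) tail, but those of replication-dependent histones end in a short stem-loop. The stem-loop binding protein SLBP and the U7 small nuclear ribonucleoprotein direct the cut that makes this end, and NPAT, a target of cyclin E and CDK2, switches on transcription of the clusters in S phase. When DNA synthesis stops, histone mRNA is rapidly degraded, so its abundance normally follows replication.

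Sequences of the genes are shown first, because members of a class share promoter elements and the report returns to them. The 4 below are the 250 bases before the RefSeq transcription start in GRCh38.p14, all on the minus strand of chromosome 6: H4C4 at chr6:26189113-26189362, H2AC1 at chr6:25726563-25726812, H2BC3 at chr6:26043714-26043963 and H1-1 at chr6:26017788-26018037. H4C4, H2AC1 and H2BC3 are the H4, H2A and H2B genes with the largest differences in their class, and H1-1 is the gene with the lowest difference of all 59. Capitals mark the TATA box TATAAA, the CCAAT box CCAAT, the octamer ATTTGCAT and the H1 box AAACACA, each searched on both strands.
H4C4: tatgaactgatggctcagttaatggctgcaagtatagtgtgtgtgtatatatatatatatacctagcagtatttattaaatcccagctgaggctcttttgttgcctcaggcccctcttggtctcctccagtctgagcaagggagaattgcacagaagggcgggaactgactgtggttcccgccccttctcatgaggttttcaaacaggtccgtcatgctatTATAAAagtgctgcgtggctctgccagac
H2AC1: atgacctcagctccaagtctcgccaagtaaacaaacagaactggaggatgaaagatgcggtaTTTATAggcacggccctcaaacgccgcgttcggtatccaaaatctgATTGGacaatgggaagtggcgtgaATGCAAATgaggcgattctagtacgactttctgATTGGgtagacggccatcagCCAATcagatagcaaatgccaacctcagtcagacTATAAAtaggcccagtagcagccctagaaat
H2BC3: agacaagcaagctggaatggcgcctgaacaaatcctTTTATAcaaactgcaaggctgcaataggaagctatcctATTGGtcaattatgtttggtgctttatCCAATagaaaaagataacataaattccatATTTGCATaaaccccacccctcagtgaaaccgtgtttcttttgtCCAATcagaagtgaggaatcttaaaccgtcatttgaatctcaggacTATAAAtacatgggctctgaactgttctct
H1-1: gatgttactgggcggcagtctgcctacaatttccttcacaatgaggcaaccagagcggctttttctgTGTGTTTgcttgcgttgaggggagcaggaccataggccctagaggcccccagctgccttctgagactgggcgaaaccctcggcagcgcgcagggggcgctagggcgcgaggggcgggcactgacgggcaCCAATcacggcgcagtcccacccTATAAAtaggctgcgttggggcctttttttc
Each has a TATAAA between 29 and 31 bases before its start. H2AC1 has the octamer 118 bases before the start on the reverse strand and H2BC3 has it 120 bases before on the forward strand, while H4C4 and H1-1 have none in these windows. The induced microRNA, hsa-miR-22-3p, lies at chr17:1713914-1713935 on the minus strand of the same build, and its mature sequence is printed with the seed, bases 2 to 8, in capitals.
hsa-miR-22-3p: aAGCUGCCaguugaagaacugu

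As a check of the labels, MIR22HG, the host gene of miR-22, read 10.02 and 10.01 in induced miR-22 cells on the log2 scale of the arrays, against 6.27 and 6.72 in non-induced cells, and 6.41 and 6.32 in NpBI-206AS cells. Pairs of values for miR-22 cells are given here as replicate 1 and replicate 2, and those for NpBI-206AS cells as the array without and then the array with doxycycline. Of 8 muscle markers, 6 lay above the array median on every array, among them MYOD1 at 8.87 to 9.74 and DES at 8.05 to 9.30; MYF5 lay near 3.9 throughout, at the lower quartile. Muscle markers differed too: 6 of 8 were below 0 in induced against non-induced miR-22 cells (48.9% of all genes), with a median of -0.61 log2 units (all genes 0.01). Of these MYH3, an embryonic myosin, at -2.79 (adjusted p = 0.015), and DES, the filament protein desmin, at -1.07 (adjusted p = 0.038), passed as lower. In NpBI-206AS cells MYH3 read 6.40 and 5.95, and DES 8.81 and 8.96. All 8 were also below 0 in non-induced NpBI-206AS against non-induced miR-22 cells (53.5% of all genes), with a median of -0.38. The part of the muscle markers in the histone results was not tested. None of 4 blood and 3 endothelial markers lay above the median on every array, with list medians of 4.32 to 4.63 and 4.21 to 4.50 over the arrays, and 1 of 4 epithelial markers did, KRT8. Array medians ran from 5.66 to 5.75. The sample descriptions carry code prefixes whose meaning they do not give: both induced miR-22 arrays have R715, which no other array has, non-induced replicate 1 has R509, and the other 3 arrays have R587. Whatever the prefix stands for and the induction of miR-22 cells therefore cannot be told apart in any result below.

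Histone genes covered a wide range of levels, from 3.55 to 12.48 log2 units, and 45 of the 59 lay above the array median on all 6 arrays. The highest in their classes by mean were H3C11, H2BC14, H1-4, H2AC21 and H4C3, each at about 10 to 12 log2 units, while H4C7 lay under the lower quartile of every array. Levels of different genes depend on their probes and are not compared further.

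**Figure D1:**
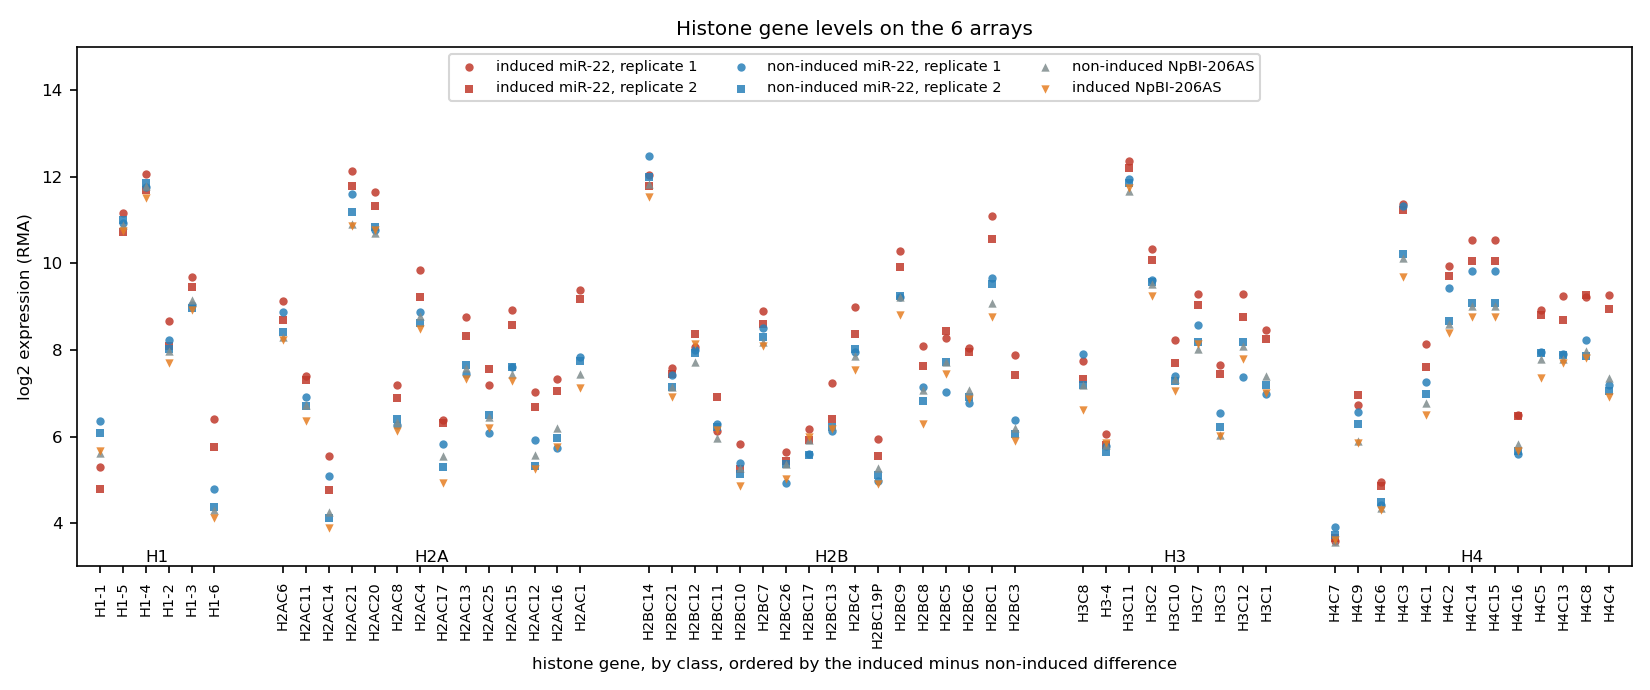
Deposited log2 expression (y axis) of each of the 59 histone genes (x axis, by class and ordered by the difference in miR-22 cells) on the 6 arrays, 1 point per array. The induced miR-22 points (red) lie above all 4 other arrays for 44 genes, and below them for H1-1.

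After induction of miR-22 most histone genes read higher than in non-induced cells, and 12 genes of the H2A, H2B, H3 and H4 classes passed the test. H4C4, an H4 gene of the HIST1 cluster, had the largest difference at 3.95-fold, followed by H2AC1 at 2.83-fold and H2BC3 at 2.71-fold. In the limma fit, adjusted over all 33297 rows, 12 of 59 passed as higher and 0 as lower, where 1.73% of all genes passed as higher and 1.53% as lower. The unadjusted p was under 0.05 for 39 as higher and 1 as lower, against 12.1% and 9.12% of all genes. The difference was above 0 for 54 of 59 (51.1% of all genes) and at least 2-fold higher for 15 (2.15% of all genes), while 1 gene, H1-1, was at least 2-fold lower (1.7% of all genes). The median of the 59 differences was 0.70 log2 units, and that of all genes 0.01.

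Both induced miR-22 arrays lay above both non-induced ones for 47 of 59 genes (27.9% of all genes) and above all 4 other arrays for 44 (22.1% of all genes). Without induced replicate 1, induced replicate 2, non-induced replicate 1 or non-induced replicate 2, 0 members passed, and 0 of all 33297 rows did. The unadjusted p was then under 0.05 for 19, 32, 33 and 29 members as higher, against 5.86%, 5.4%, 10% and 13.6% of all genes. The median difference was then 0.53, 0.89, 0.78 and 0.60. In RNA from whole cultures, a change in the share of cells that are in S phase and a change in histone RNA per cell cannot be told apart.

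**Figure D2:**
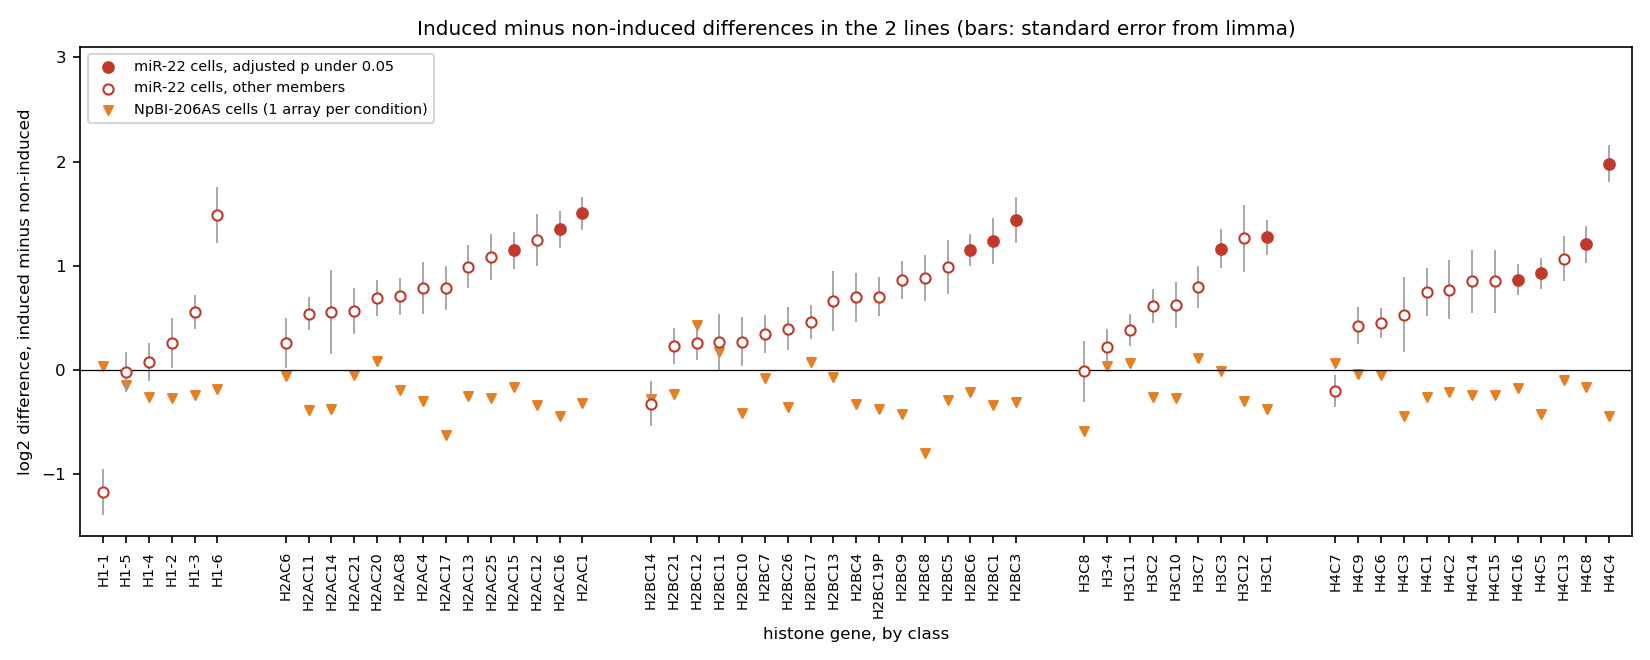
Difference between induced and non-induced cells (y axis, log2 units) for each histone gene (x axis, by class), for miR-22 cells (circles, bars are the standard error from limma, n = 2 per group) and for NpBI-206AS cells (triangles, 1 array per condition). The 12 filled circles passed the adjusted test, 54 of 59 circles lie above 0, and 50 of 59 triangles lie below 0.

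The 4 control arrays and the replicates were not equal. Measured from the mean of the 4 arrays without induced miR-22, the median histone gene stood at 0.98 in induced miR-22 replicate 1 and 0.72 in replicate 2. It stood at 0.18 in non-induced miR-22 replicate 1, 0.03 in replicate 2, 0.01 in untreated NpBI-206AS cells and -0.21 in those with doxycycline. All genes together stayed between -0.01 and 0.05 by the same measure. The induced arrays were thus the highest, replicate 1 lay above replicate 2 for 52 of 59 genes (55.3% of all genes) with a median gap of 0.30, and non-induced replicate 1 lay above replicate 2 for 40 of 59 (52% of all genes). The gap between the induced replicates is smaller than the gap of 0.43 between the lower induced and the higher non-induced array, by medians over the 59 genes.

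**Figure D3:**
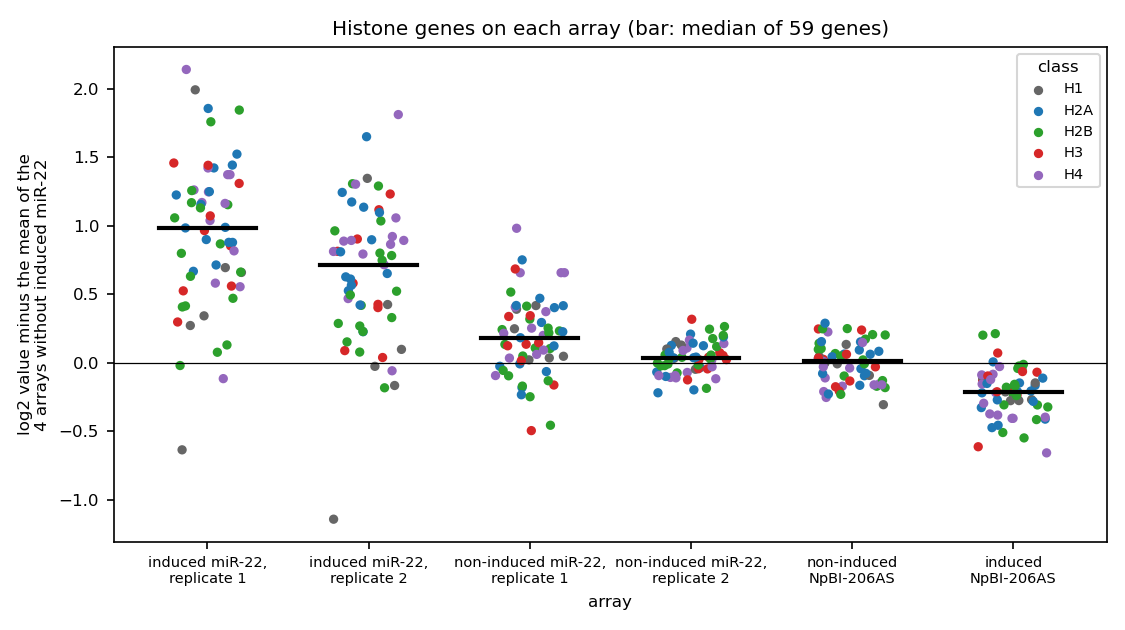
Each point is 1 of the 59 histone genes on 1 array (x axis), as its log2 value minus that gene's mean over the 4 arrays without induced miR-22 (y axis), coloured by class; bars are medians. The medians are 0.98 and 0.72 in induced miR-22 cells and between -0.21 and 0.18 on the other 4 arrays.

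H4 genes, whose protein pairs with H3 at the core of the nucleosome, had a median difference of 0.85 log2 units, with 12 of 13 above 0 and 4 passed: H4C4, H4C8, H4C5 and H4C16. H4C4 read 9.27 and 8.94 in induced miR-22 cells, 7.19 and 7.06 in non-induced cells, and 7.35 and 6.91 in NpBI-206AS cells. Both arrays of induced miR-22 cells stood apart from all 4 others by more than 1.5 log2 units, and the difference was 1.98 (SE 0.18, adjusted p = 0.018). H4C8 read 9.22 and 9.28 against 8.23 and 7.86, with 7.98 and 7.82 in NpBI-206AS cells, a difference of 1.20 (SE 0.18, adjusted p = 0.035). H4C5 read 8.92 and 8.81 against 7.95 and 7.92, with 7.78 and 7.36 in NpBI-206AS cells, and rose by 0.93 (adjusted p = 0.039). H4C16, the only HIST4 gene, read 6.50 and 6.48 against 5.59 and 5.66, with 5.83 and 5.66 in NpBI-206AS cells, and rose by 0.87 (adjusted p = 0.043). In each of these 4 genes both induced miR-22 arrays lay above all 4 others (22.1% of all genes). The genes were picked by their difference from the non-induced arrays, so this adds no support.

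Other H4 genes varied more between replicates. H4C3, the H4 gene with the highest level, read 11.38 and 11.23 in induced cells but 11.32 and 10.23 in non-induced cells, and 10.13 and 9.68 in NpBI-206AS cells. Non-induced replicate 1 thus lay among the induced arrays, the difference of 0.53 did not pass (SE 0.36, adjusted p = 0.48), and without non-induced replicate 2 it was -0.02. H4C14, identical to H4C15, read 10.54 and 10.06 against 9.82 and 9.07, with 9.01 and 8.76 in NpBI-206AS cells, a difference of 0.85 (adjusted p = 0.18). H4C7 was the H4 gene with the lowest difference, -0.20 (adjusted p = 0.53), at levels of 3.55 to 3.92 where no order can be read. The class median was 0.48 without non-induced replicate 2, and 0.61 to 1.08 without any other of the miR-22 arrays.

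H2A genes, which form dimers with H2B at the edge of the nucleosome, were above 0 in all 14 cases, with a median of 0.78, and 3 passed. H2AC1, known as a testis-enriched H2A gene, read 9.39 and 9.19 in induced miR-22 cells, 7.83 and 7.74 in non-induced cells, and 7.44 and 7.12 in NpBI-206AS cells. It rose by 1.50 log2 units (SE 0.16, adjusted p = 0.021), with the induced arrays more than 1 unit above the rest. H2AC16 read 7.34 and 7.05 against 5.74 and 5.96, with 6.21 and 5.77 in NpBI-206AS cells, and rose by 1.35 (SE 0.18, adjusted p = 0.028). H2AC15 read 8.93 and 8.58 against 7.61 and 7.61, with 7.44 and 7.28 in NpBI-206AS cells, and rose by 1.15 (SE 0.18, adjusted p = 0.036). H2AC21, the H2A gene with the highest level, read 12.13 and 11.79 against 11.61 and 11.18, a difference of 0.56 that did not pass (adjusted p = 0.21), and the lowest of the class was H2AC6 at 0.26 (adjusted p = 0.61), whose induced and non-induced arrays overlapped at 9.13 and 8.69 against 8.88 and 8.43.

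H2B genes, the partners of H2A, had a median difference of 0.66, 16 of 17 above 0 and 3 passed. H2BC3 read 7.89 and 7.42 in induced miR-22 cells, 6.38 and 6.06 in non-induced cells, 6.20 and 5.90 in NpBI-206AS cells, and rose by 1.44 log2 units (SE 0.22, adjusted p = 0.036). H2BC1, a testis-enriched H2B gene that lies beside H2AC1, read 11.10 and 10.57 against 9.67 and 9.52, with 9.09 and 8.75 in NpBI-206AS cells, and rose by 1.24 (SE 0.22, adjusted p = 0.049). H2BC6 read 8.04 and 7.94 against 6.78 and 6.90, with 7.08 and 6.87 in NpBI-206AS cells, and rose by 1.15 (SE 0.15, adjusted p = 0.027). All 3, picked by the same difference, had both induced miR-22 arrays above the other 4 (22.1% of all genes). H2BC14, which has the highest H2B level, went the other way without passing: it read 12.04 and 11.78 against 12.48 and 11.99, with 11.83 and 11.54 in NpBI-206AS cells, a difference of -0.32 (SE 0.22, adjusted p = 0.48).

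H3 genes had a median difference of 0.62, 8 of 9 above 0 and 2 passed. H3C1 read 8.45 and 8.26 in induced miR-22 cells, 6.98 and 7.18 in non-induced cells, 7.39 and 7.01 in NpBI-206AS cells, and rose by 1.27 log2 units (SE 0.17, adjusted p = 0.027). H3C3 read 7.66 and 7.44 against 6.54 and 6.23, with 6.03 and 6.02 in NpBI-206AS cells, and rose by 1.16 (SE 0.19, adjusted p = 0.039). H3C12 shows how replicate spread sets what passes: its difference of 1.26 is close to that of H3C1, but its non-induced arrays read 7.37 and 8.18, the standard error was 0.32 and it did not pass (adjusted p = 0.098). H3C11, the H3 gene with the highest level, read 12.37 and 12.21 against 11.96 and 11.86, a difference of 0.38 (adjusted p = 0.23). H3C8, the lowest, read 7.75 and 7.32 against 7.91 and 7.19, a difference of -0.01 (adjusted p = 0.99) whose sign turned, to 0.06, when each array was centred on its median.

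H1 genes, whose proteins bind the linker DNA between nucleosomes, differed most among themselves, from -1.17 to 1.49, with a median of 0.17, 4 of 6 above 0 and 0 passed. H1-1 read 5.30 and 4.79 in induced miR-22 cells, 6.35 and 6.09 in non-induced cells, 5.63 and 5.67 in NpBI-206AS cells, the single histone gene with both induced arrays below the other 4 (17.2% of all genes). Its difference of -1.17 (SE 0.22, adjusted p = 0.056) was just short of the threshold. H1-6, the testis-specific H1, went the other way, at 6.40 and 5.75 against 4.79 and 4.38, with 4.31 and 4.13 in NpBI-206AS cells, a difference of 1.49 (SE 0.27, adjusted p = 0.051). H1-3 differed by 0.56 (adjusted p = 0.12), and H1-4, the H1 gene with the highest level, by 0.08 (adjusted p = 0.87), reading 12.07 and 11.71 against 11.77 and 11.86. The class median was -0.08 without induced replicate 1, and the differences between the medians of the classes were not tested.

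The clusters were read in chromosomal order to see whether the differences were local. HIST1 had a median difference of 0.70 with 11 of 49 passed, all as higher (1.73% of all genes). HIST2 had 0.69 with 0 of 6, HIST3 0.39 with 0 of 3, and H4C16 of HIST4 0.87. The unadjusted p was under 0.05 as higher for 32 genes of HIST1, 5 of HIST2 and 1 of HIST3 (12.1% of all genes). Differences between clusters or blocks were not tested. Within HIST1, split where neighbouring starts lie over 500000 bases apart in GRCh38.p14, the first block of 31 genes had a median of 0.77 and 9 passed, the second of 5 genes 0.42 and 0 passed, and the third of 13 genes 0.66 and 2 passed. In the order of the measured genes H1-1 lies between H2BC1 and H3C1, which both rose. This order does not show distance, and H2BC1 is not close to H1-1. The promoter window of H1-1 is chr6:26017788-26018037, and that of H2AC1, which lies beside H2BC1, is chr6:25726563-25726812. In HIST2 the 6 differences ran from 0.23 for H2BC21 to 0.85, and in HIST3 from 0.22 for H3-4, a testis-specific H3 gene, to 1.08 for H2AC25 (adjusted p = 0.062).

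**Figure D4:**
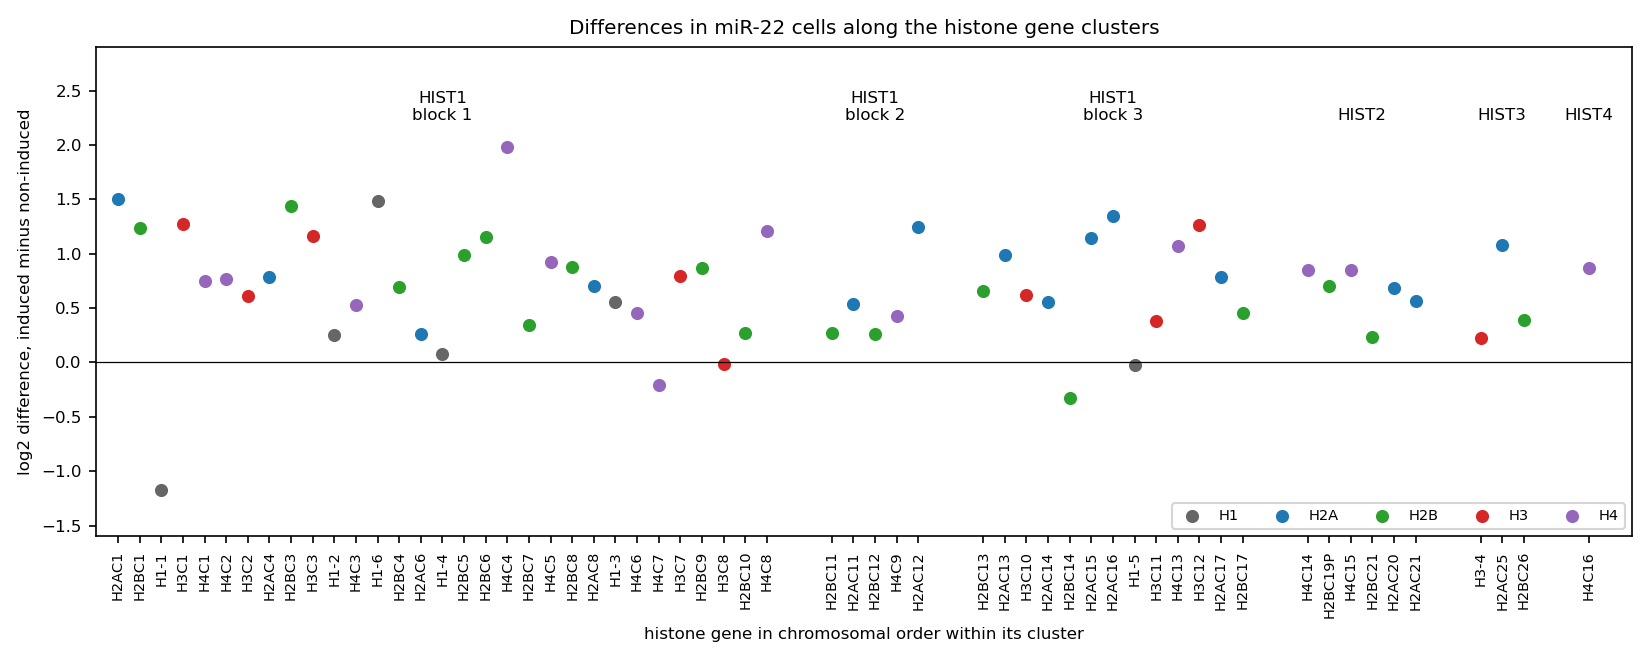
Induced minus non-induced difference in miR-22 cells (y axis, log2 units) for each histone gene in chromosomal order within its cluster (x axis), coloured by class. HIST1 block medians are 0.77, 0.42 and 0.66. In this order, which does not show distance, H1-1 at -1.17 stands between H2BC1 and H3C1, at 1.24 and 1.27.

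Many H2A and H2B genes are transcribed away from each other from a shared promoter, so the members of such a pair were set side by side. In 9 pairs the starts lay 215 to 248 bases apart, and the 300-base windows around them overlapped by 253 to 286 bases. Both differences were above 0 in 8 pairs, and the H2A gene had the larger one in 7 of 9, with gaps of 0.17 to 0.88. In the pair printed above in part, H2AC1 and H2BC1 rose by 1.50 and 1.24. The widest gap was in H2AC14 and H2BC14, at 0.56 and -0.32; H2AC25 and H2BC26 differed by 1.08 and 0.39, and H2AC20 and H2BC21 by 0.69 and 0.23. The order was turned in H2AC6 and H2BC4, at 0.26 and 0.70, and in H2AC8 and H2BC8, at 0.70 and 0.88. The gaps within pairs were not tested.

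The octamer, CCAAT and the H1 box followed class, and TATAAA was found in every class. Windows of 300 bases, 250 before to 50 after the start, were given for 53 of the 59 members and for 27305 genes in all; those of H2BC19P, H4C1, H4C3, H2AC12, H3C11 and H3C12 were not used here. The octamer was in 23 of the 53 windows, all of H2A (10 of 13) or H2B (13 of 16) genes, against 1.8% of all windows. In 7 of the 9 pairs above the H2A window had it. As the windows of a pair overlap, 1 site can count for both genes. CCAAT was in 45 of 53 (35.7% of all windows), in every H1, H2A, H2B and H3 window but in only 3 of 11 H4 windows. TATAAA was in 35 of 53 (11.95% of all windows): 3 of 6 H1, 10 of 13 H2A, 12 of 16 H2B, 5 of 7 H3 and 5 of 11 H4. The H1 box was in all 6 H1 windows and 1 H2A window (5.76% of all windows). Beside these elements the median difference was 0.69 with the octamer and 0.78 without, 0.62 with CCAAT and 0.86 without, 0.69 with TATAAA and 0.85 without; a match is to the letters only. With the H1 box the median was 0.26 and without it 0.78, and 6 of the 7 windows with it were of H1 genes. All windows without CCAAT were of H4 genes, so the medians for CCAAT also compare classes.

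Near-identical histone genes can share probe signal, and some array rows name several of them. A further 18 rows named only histone genes, several each, and held 15 distinct sets of values. All 18 were above 0 in miR-22 cells, with a median of 0.78 and a range of 0.31 to 1.66. Of these, 4 passed as higher and 0 as lower: the rows of H4C14 with H4C15 at 1.66 (adjusted p = 0.024, the same values on both rows), and those of H4C11 with H4C12 at 1.60 (adjusted p = 0.025) and 1.47 (adjusted p = 0.029). The H4C14 and H4C15 row used above gave 0.85, so rows of the same genes differed in size. Probe sequences were not used here, so how far the single-symbol rows share signal was not tested.

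NpBI-206AS cells had the same doxycycline with 1 array per condition, so their values are differences with no test. On these arrays the histone genes read lower with doxycycline than without it. Of the 59, 50 were below 0 (48.7% of all genes), with a median of -0.25 against 0.00 for all genes. None was 2-fold higher or lower (0.0434% and 0.0652% of all genes). Induced miR-22 replicate 1 lay above replicate 2 for 52 of 59 genes, with a median gap of 0.30. A gap of this size thus also occurs between replicates of the same condition. The 3 genes with the largest differences were H2BC8, at 7.08 without and 6.29 with doxycycline, a difference of -0.80; H2AC17, at 5.56 and 4.93, a difference of -0.63; and H3C8, at 7.20 and 6.62, a difference of -0.58. These 3 stood at 0.88, 0.78 and -0.01 in miR-22 cells. H2BC12 was the highest, at 0.43.

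Whether the lines responded differently was tested by the interaction, the difference in miR-22 cells minus that in NpBI-206AS cells. No member passed (0 of 59, and 0% of all genes), and the unadjusted p was under 0.05 for 29 as higher and 1 as lower (4.76% and 3.26% of all genes) and a median of 0.98. The smallest adjusted p among the members was 0.21, for H4C4 at 2.42 (SE 0.31).

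With doxycycline on both sides, induced miR-22 against induced NpBI-206AS cells, 2 of 59 passed as higher and 0 as lower (0.168% and 0.076% of all genes). These were H4C4 at 2.19 (adjusted p = 0.044) and H2AC1 at 2.16 (adjusted p = 0.043), both among those that rose in the main comparison, which shares the induced miR-22 arrays. The median was 1.04 and 30 of 59 were at least 2-fold higher (1.76% of all genes), and the unadjusted p was under 0.05 for 45 as higher and 0 as lower (7.82% and 6.93% of all genes). Without either induced replicate 0 members passed (0% of all genes).

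Before induction the lines did not differ detectably in histone genes: 0 of 59 passed in non-induced NpBI-206AS against non-induced miR-22 cells (0% of all genes), and 0 were at an unadjusted p under 0.05 (1.16% and 1.23% of all genes higher and lower). The differences ran from -0.64 for H4C3 to 0.36 for H2AC16, with 41 of 59 below 0 (53.5% of all genes) and a median of -0.10. Only 1 NpBI-206AS array enters this comparison.

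With all 4 other arrays as controls, 38 of 59 passed as higher and 0 as lower (7.78% and 6.31% of all genes), with a median of 0.82 against 0.03 for all genes. By class these were 2 of 6 H1, 11 of 14 H2A, 8 of 17 H2B, 7 of 9 H3 and 10 of 13 H4 genes. The 2 H1 genes were H1-6 and H1-3, while H1-1 stood at -0.89 (adjusted p = 0.051). This count was 9 without induced replicate 1, 22 without induced replicate 2 and 24 without non-induced replicate 2 (1.37%, 1.97% and 4.27% of all genes). Against the 3 control arrays with prefix R587 alone, 45 passed as higher and 1, H1-1, as lower (11.7% and 10.3% of all genes).

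Other genes of the histone pathway were read from lists by function. Among 25 measured genes for transcription and 3′ end processing of histone mRNA, 0 passed (1.73% of all genes as higher and 1.53% as lower). The unadjusted p was under 0.05 for 4 as higher and 0 as lower (12.1% and 9.12% of all genes), and the median was 0.21. HINFP, the factor that binds H4 promoters, had the largest difference, 1.03 (SE 0.21, adjusted p = 0.061), at 8.26 and 8.16 in induced miR-22 cells against 6.93 and 7.42, with 7.44 and 7.49 in NpBI-206AS cells. CCNE2, a cyclin E gene, stood at 0.80 (adjusted p = 0.14), NPAT at 0.24 and SLBP at -0.07. NPAT, HINFP and SLBP thus did not pass, nor did any other gene of this list.

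Replication genes lay on the other side of 0. Of 38 measured genes for DNA replication and S phase, 31 were below 0 (48.9% of all genes), with a median of -0.29, and 0 passed as higher and 3 as lower (1.73% and 1.53% of all genes). Leaving out induced replicate 1 gave a median of -0.45, and leaving out induced replicate 2 gave -0.14. Against induced NpBI-206AS cells it was 0.0028, with 19 genes above and 19 below 0. The 3 that passed as lower within miR-22 cells were CLSPN, CDC45 and PRIM1. CLSPN, a checkpoint mediator at forks, stood at -1.48 (adjusted p = 0.020). CDC45, a helicase subunit, stood at -1.08 (adjusted p = 0.041), and PRIM1, a primase subunit, at -1.07 (adjusted p = 0.034). CLSPN read 8.27 and 8.14 in induced miR-22 cells against 9.65 and 9.72, with 9.74 and 9.16 in NpBI-206AS cells. In NpBI-206AS cells all 38 were below 0 after doxycycline, with a median of -0.37. By their medians, histone genes and replication genes both lay below 0 in NpBI-206AS cells, which had 1 array per condition. In the comparison within miR-22 cells they lay on opposite sides of 0.

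Histone chaperones, which carry histones to DNA, had a median of -0.28 over 20 genes, and 0 passed (1.73% of all genes as higher and 1.53% as lower). The unadjusted p was under 0.05 for 1 as higher and 6 as lower (12.1% and 9.12% of all genes). IPO4, an importin for H3 and H4, stood at -0.93 (adjusted p = 0.053) and SSRP1, a subunit of the FACT complex, at -0.92 (adjusted p = 0.051). Variant histones, most of which are made throughout the cell cycle from polyadenylated mRNA, had a median of -0.04 over 12 genes, and 1 passed, as higher (1.73% of all genes). This was MACROH2A2, a macroH2A gene, at 9.96 and 9.66 in induced miR-22 cells against 8.06 and 8.01, with 8.11 and 7.97 in NpBI-206AS cells, a rise of 1.77 (adjusted p = 0.019). H2AX stood at -0.69 (adjusted p = 0.10) and H3-3B at -0.47 (adjusted p = 0.15).

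Spliceosomal and other short noncoding RNAs, which like histone mRNAs lack a poly(A) tail, were higher on the same arrays. Of 26 genes, 24 were above 0 (51.1% of all genes), and the median was 1.36 (all genes 0.01). As higher 12 passed, and as lower 1, RNU6-501P at -0.93 (1.73% and 1.53% of all genes). RNU4-2, a spliceosomal RNA, read 5.75 and 6.39 against 3.05 and 3.42, with 4.12 and 3.63 in NpBI-206AS cells, a rise of 2.84 (adjusted p = 0.019). Its values of 3.05, 3.42 and 3.63 lay under the array lower quartiles of 3.92 to 4.01, so the size of this rise is uncertain. The same holds for RNU5B-1, which passed and read 3.25 to 3.76 on the arrays without induced miR-22. RNU5F-1, which also passed, lay under these quartiles on every array, at 1.82 to 3.53, where no order can be read. So did RNVU1-3, RNVU1-4, RNVU1-17, RNVU1-19 and VTRNA1-1, which did not pass. The counts and median above include them. Without the dimmest 50% of rows, 9 of 13 genes passed as higher and 1 as lower (7.5% and 6.27% of all genes). The median was then 1.53. RPPH1, the RNA of ribonuclease P, rose by 2.54 (adjusted p = 0.020). The median of the 26 genes in NpBI-206AS cells was -0.07. These values move with the histone genes on the arrays of prefix R715; their part in the histone result was not tested. No gene of these lists passed when any of the 4 miR-22 arrays was left out.

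**Figure D5:**
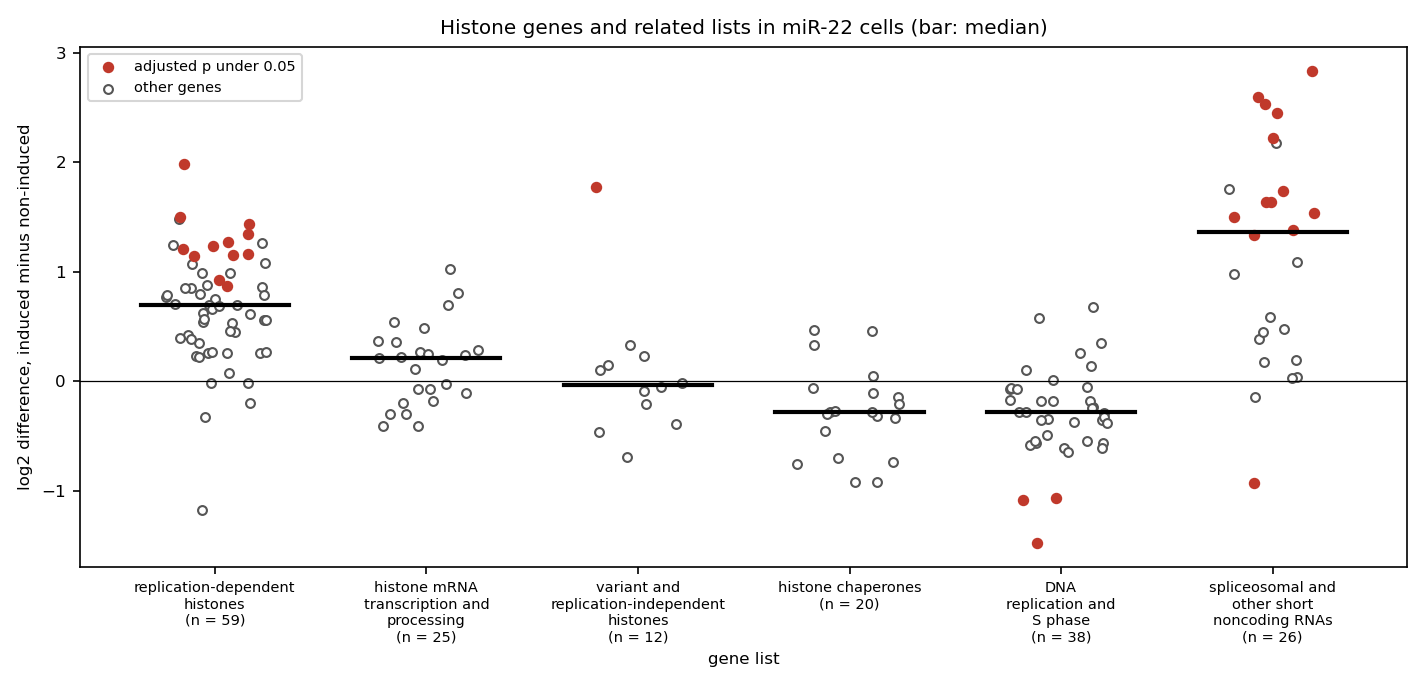
Induced minus non-induced difference in miR-22 cells (y axis, log2 units) for the histone genes and 5 related lists (x axis), 1 point per gene, filled where the adjusted p was under 0.05; bars are medians. The medians are 0.70 for histone genes, 0.21, -0.04, -0.28 and -0.29 for the next 4 lists, and 1.36 for short noncoding RNAs.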

How the data were processed

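The deposited table holds 33297 log2 expression values per array, which the authors obtained by RMA with Partek (versions not stated), per the submitters' processing notes. RMA corrects background, gives all arrays nearly 1 distribution and summarises the probes of a row, so it would hide a shift shared by all transcripts. Rows were named through the platform annotation, updated by gene ID with RefSeq of GRCh38.p14 (19429 of 19460 single-symbol rows matched); 1754 rows with several symbols and 12083 without one named no gene.

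Tests used limma 3.58.1 in R 4.3.3 with 1 mean per group over all 6 arrays, two-sided; p-values were adjusted over all rows (Benjamini-Hochberg) and 0.05 was the threshold. The spread came from the 2 pairs of miR-22 replicates (2 residual and 3.62 prior degrees of freedom), and a group of 1 array was assumed to vary like them; the number of arrays limits the precision. The fit was tested on simulated data.

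The histone genes and lists were chosen with earlier results of these data known. Genes were named by rule: H4C4, H2AC1, H2BC3, all that passed, the largest, lowest and highest-level of each class, the 3 largest differences in NpBI-206AS cells and up to 4 per list. H2BC12, H1-2, H1-5, H2BC10, H2BC11, NPAT, SLBP, H3-3B and RNU6-501P, those that end a range or show a core regulator, and the promoter pairs were added after their values were seen. The promoter and miRNA sequences are from RefSeq (GRCh38.p14).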

Additional observations from a re-analysis of the deposited data

How the results depend on the processing

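The 12 histone genes that passed kept their direction under every alternative run: another quantile normalization, median centring, cyclic loess, no dim rows, the mean of a gene's rows, only the miR-22 arrays, a replicate block, trended and robust variances, and each miR-22 array left out. Both induced arrays lay above both non-induced ones for each of the 12, so leaving out 1 array could not turn their sign. The 12 were picked by the same contrast and the other settings refitted the same arrays, so the kept direction is no independent check. Without the dimmest 50% of rows 24 of 51 members passed in the comparison within miR-22 cells (7.5% of all genes as higher, in place of 1.73%), and 19 in place of 2 against induced NpBI-206AS cells (1.68% in place of 0.168%); fewer rows were tested. With the replicate number as a block, over the 4 miR-22 arrays, 26 passed (25 higher, and H1-1 lower; 4.53% and 3.43% of all genes); the deviations of same-numbered arrays correlated at 0.20 over all rows, but 2 pairs do not show that the numbers pair the cultures, and the cause was not tested. Other settings with all miR-22 arrays gave 11 to 14, where 14 under cyclic loess and under trended and robust variances were 13 higher and H1-1 lower. Leaving out 1 miR-22 array gave 0 to 0 members in that comparison, 9 to 46 in place of 38 against the other 4 arrays, 0 to 0 in place of 2 against induced NpBI-206AS cells (run without each induced replicate only), and medians of 0.53 to 0.89 in place of 0.70; fewer arrays were then fitted. The 46, without non-induced replicate 1, were 45 higher and H1-1 lower (11.7% and 10.3% of all genes), where the 38 were all higher. In the comparison within miR-22 cells the sign turned in some setting for 7 of the 59: H1-2, H1-5, H2BC10 and H2BC11, H1-4 (-0.11 to 0.26 with 1 array left out, below 0 without induced replicate 1), H4C3 (-0.019 to 1.08, below 0 without non-induced replicate 2) and H3C8 (-0.38 to 0.35, above 0 without induced replicate 2, at 0.20, or non-induced replicate 1, and 0.058 with centring). The order of the class medians also turned: H4 and H2A stood at 0.85 and 0.78, but at 0.78 and 0.79 after another quantile normalization. Over all rows 531 were higher and 669 lower, against 718 and 574 with centring. The interaction and the comparison of non-induced lines gave 0 members in each setting run. The table has no detection calls, so low levels such as those of H4C7 carry no order.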

Other observations

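Some replication-dependent histone genes are known to make polyadenylated transcripts as well. A group of 6 such genes, H1-2, H2AC6, H2BC4, H2BC5, H2BC12 and H2BC21, was chosen after the values were seen and has no test. Its median can therefore reflect the choice of genes. Their median difference in miR-22 cells was 0.26 log2 units, from 0.23 for H2BC21 to 0.99 for H2BC5, beside 0.70 for all 59 histone genes, and 0 of the 6 passed. H2AC6 read 9.13 and 8.69 in induced miR-22 cells against 8.88 and 8.43, and H2BC21 read 7.57 and 7.45 against 7.41 and 7.15, so the arrays overlapped for the former and did not for the latter. In NpBI-206AS cells the median of the 6 was -0.25, beside -0.25 for all 59, and H2BC12 at 0.43 was the single member above 0.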
